A study of Mus musculus with 32 samples.

Results

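The genes described here were 9 mouse genes whose human counterparts carry variants linked to amyotrophic lateral sclerosis (ALS) or whose transcripts are disturbed in that disease: Tardbp, Optn, Tbk1, Vcp, Ubqln2, Stmn2, Unc13a, Kif5a and Dctn1. They were taken by name as 9 rows of a table of 42524 genes, and all 9 passed the filter on low counts at both ages. RNA was measured in the spinal cord of 32 mice, 4 in each of 8 groups. The groups combined genotype (wildtype littermates, WT, or G93A mice, which carry a transgene for human SOD1 with the G93A mutation on a C57BL/6J background), treatment (untreated, or OKN-007, a nitrone with antioxidant and anti-inflammatory properties, in the drinking water) and age (90 or 155 days by the sample labels, where the study's methods give 95 days for the younger age). Treated and untreated mice were compared within each genotype, and both genotypes were thus measured with and without the compound. The G93A line is a model of SOD1-linked disease driven by a high copy number of the human gene, and the 9 genes themselves were not altered in any group. The labels do not name the dose or the sex of the sequenced mice, and each library came from a piece of cord whose level along the body was not stated. The study describes its cohorts killed at these ages as given the higher of its doses, at which it reports using only females. Its cohorts killed at 155 days differ in the start of treatment, before disease onset or from 95 days. The sample titles do not give the start, so the length of treatment of the sequenced mice is not known here.

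The 9 genes act in a few processes on which motor neurons depend. Tardbp encodes TDP-43, a nuclear RNA-binding protein that represses cryptic exons, and its loss from the nucleus in human ALS disturbs the transcripts of STMN2 and UNC13A. The cryptic exons of these transcripts are human sequences, so a count per gene in mouse cord does not report on them. Optineurin (Optn), its kinase Tbk1, the segregase Vcp and the shuttle protein ubiquilin 2 (Ubqln2) serve autophagy and the removal of ubiquitinated proteins. Stathmin 2 (Stmn2) regulates axonal microtubules, Unc13a primes synaptic vesicles for release, Kif5a is a neuronal heavy chain of kinesin-1 that carries cargo towards the axon terminal, and Dctn1 encodes the p150 subunit of dynactin, the partner of the dynein motor that carries cargo back.

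Library totals lay between 19701722 and 30138257 counts (median 26658755), so that 3 counts in the smallest library stood for 0.152 CPM, where CPM scales a count to the total of its library. The 9 genes lay far above this limit, with between 794 counts (Tbk1) and 64540 counts (Kif5a) in a mouse. No library repeated another, since the closest pair within a group had a chi-square of 3.57 per gene. As the label of spinal cord asks, no listed marker of neurons, motor neurons, oligodendrocytes or astrocytes was at 0 in all mice of a group. The human transgene was not analysed here, and the mouse gene Sod1 measured 275 ± 44.1 CPM in untreated WT mice and 257 ± 18.8 CPM in untreated G93A mice at 155 days (SD, n = 4 each), which does not check the genotype labels. Liver transcripts were raised in 1 untreated and 1 treated G93A mouse of 155 days (replicates 12 and 15), with summed levels of 192 and 134 CPM. A score over 6 caudal Hox genes, the mean of log2(CPM + 1), moved with the groups: at 155 days it ran from 2.93 to 4.15 in the 8 WT mice and from 0.556 to 3.02 in the 8 G93A mice, and at 90 days from 1.20 to 3.59 and from 0.653 to 3.26. Its values are given beside the results below because caudal Hox genes mark how far down the cord a sample was taken, and their part in the results was not tested beyond the fits that include the score.

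Promoter sequences were at hand for 6 of the 9 genes (Tbk1, Unc13a, Dctn1, Tardbp, Vcp and Optn) in RefSeq on GRCm38.p6, each running from 250 bases before to 50 bases after a transcription start. A pair of genes called lower in G93A mice at 155 days, Tbk1 and Unc13a, is printed beside a pair whose level did not pass the test, Tardbp and Vcp. The Tbk1 call was narrow, and in untreated mice it was kept in 8 of 19 alternative settings. Capitals mark the GC box (letters GGGCGG), the CCAAT box (letters CCAAT) and the TATA box (letters TATAAA), each searched on both strands, and no marked matches overlap.
Tbk1 chr10:121586745-121587044 minus strand: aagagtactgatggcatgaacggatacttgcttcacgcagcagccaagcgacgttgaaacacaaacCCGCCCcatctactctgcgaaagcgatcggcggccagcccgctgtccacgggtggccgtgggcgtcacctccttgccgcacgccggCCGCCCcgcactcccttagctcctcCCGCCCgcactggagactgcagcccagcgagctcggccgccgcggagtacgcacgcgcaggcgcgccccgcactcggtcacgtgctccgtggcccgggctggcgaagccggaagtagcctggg
Unc13a chr8:71671708-71672007 minus strand: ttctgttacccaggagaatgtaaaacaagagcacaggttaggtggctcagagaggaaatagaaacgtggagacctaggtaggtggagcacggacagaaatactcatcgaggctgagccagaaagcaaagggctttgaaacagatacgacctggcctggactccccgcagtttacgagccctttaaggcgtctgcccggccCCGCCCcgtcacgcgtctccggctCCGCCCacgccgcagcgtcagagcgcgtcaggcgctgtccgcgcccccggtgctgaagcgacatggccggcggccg
Tardbp chr4:148626947-148627246 minus strand: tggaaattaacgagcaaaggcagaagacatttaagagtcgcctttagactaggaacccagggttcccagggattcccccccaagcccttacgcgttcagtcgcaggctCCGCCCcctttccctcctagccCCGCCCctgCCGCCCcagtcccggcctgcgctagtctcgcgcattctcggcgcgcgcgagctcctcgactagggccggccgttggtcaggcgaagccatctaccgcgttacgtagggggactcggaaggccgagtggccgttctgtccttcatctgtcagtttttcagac
Vcp chr4:43000458-43000757 minus strand: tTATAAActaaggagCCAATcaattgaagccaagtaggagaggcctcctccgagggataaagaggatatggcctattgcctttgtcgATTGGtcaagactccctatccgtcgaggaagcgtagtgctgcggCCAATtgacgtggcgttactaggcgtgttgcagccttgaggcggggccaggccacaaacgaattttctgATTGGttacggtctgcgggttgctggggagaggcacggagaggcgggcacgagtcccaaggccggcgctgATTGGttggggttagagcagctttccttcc
GC boxes stood in the windows of Tbk1 (3), Unc13a (2) and Tardbp (3), and in that of Optn (2), which is not printed. Among all 32851 promoters of this length, 35.7% held a GC box. Vcp held 5 CCAAT boxes, found in 37.4% of all promoters, and 1 TATA match, found in 13.6%. Neither of the 2 RefSeq windows of Dctn1 (chr6:83179339-83179638 and chr6:83185696-83185995) held any of these letters. Both lie inside the annotated gene, which starts at chr6:83165920, and the window at that start was not searched. Ubqln2, Stmn2 and Kif5a were not searched. A match is a description of the window and not a bound site.

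Levels of different genes were compared per kilobase of exon in untreated WT mice at 155 days. The length was that of all annotated exons of a gene merged, on GRCm38. It can exceed the length of the transcripts present, and how far the order depends on it was not tested. Kif5a stood highest at 296 ± 23.0 CPM per kb (SD, n = 4). Dctn1 followed at 90.0 ± 3.26 and Vcp at 84.9 ± 1.62 CPM per kb, and the mice of these 2 genes overlapped (85.2 to 92.3 against 82.8 to 86.7 CPM per kb). Stmn2 measured 71.5 ± 0.907, Ubqln2 46.8 ± 2.55, Tardbp 31.8 ± 4.24, Optn 19.8 ± 0.844, Tbk1 15.6 ± 1.49 and Unc13a 9.49 ± 1.14 CPM per kb. Apart from Dctn1 and Vcp, the ranges of neighbours in this order did not overlap. Over all 16 WT mice of both ages, Unc13a was at percentile 74.3 and Kif5a at percentile 99.4 of the genes tested, ranked per kilobase.

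**Figure D1:**
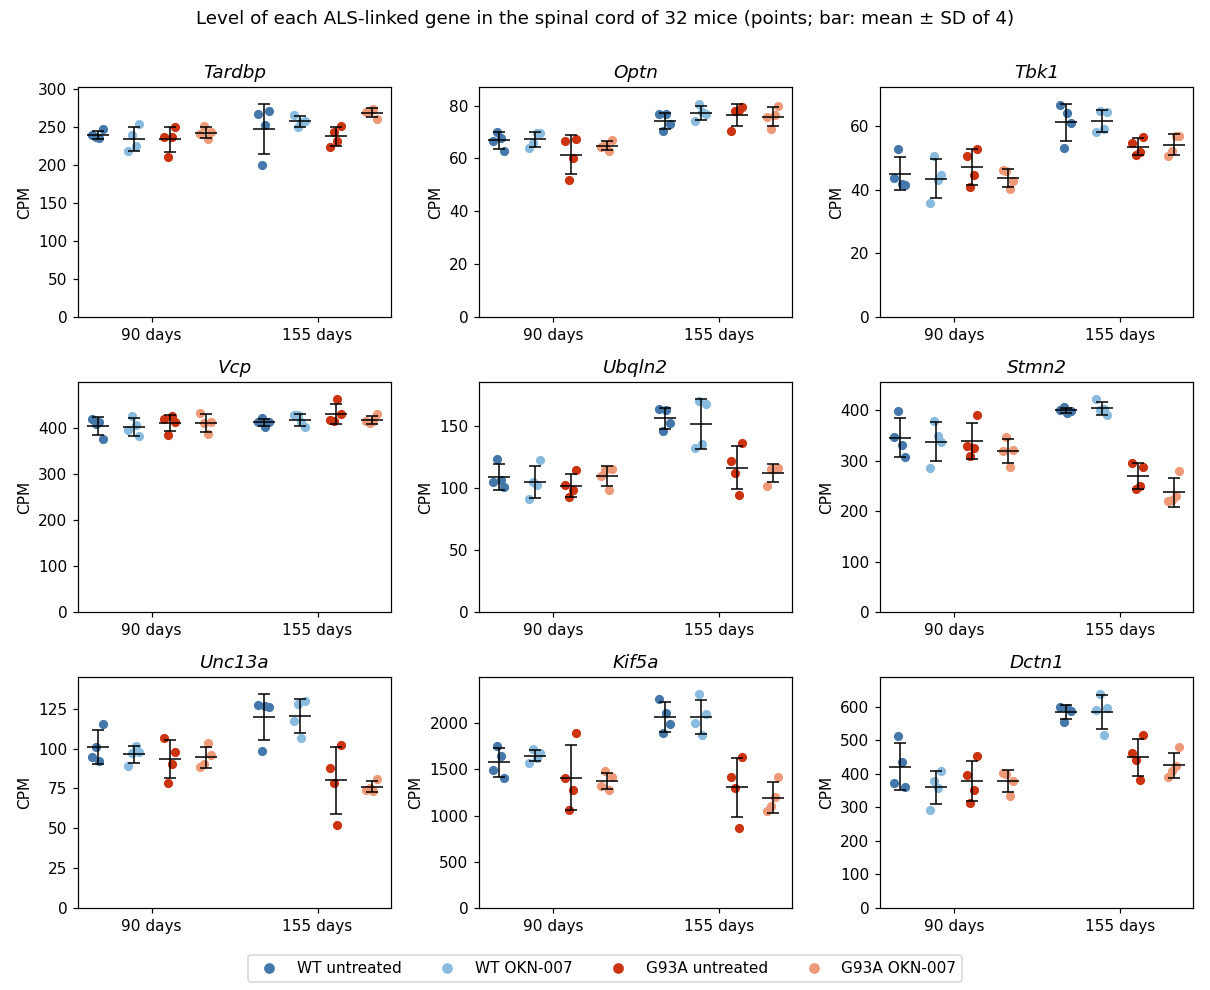
Level of each of the 9 genes in CPM (y axis, from 0) in each mouse (points), by age and group (x axis), with the mean and SD of the 4 mice of a group in black. At 155 days the G93A points of Stmn2, Kif5a, Dctn1 and Ubqln2 lie below those of WT mice of the same treatment. Those of Vcp and Optn overlap with the WT points, and some lie above them.

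The first question was how the genes differed between G93A and WT mice at 155 days, late in the disease of this model. In untreated mice 6 of the 9 genes were lower in G93A cord and none was higher. Kif5a, Unc13a and Stmn2 fell to about the same extent (0.632, 0.669 and 0.674 times the WT level), followed by Ubqln2 (0.745 times), Dctn1 (0.769 times) and Tbk1 (0.875 times). Over all 18675 genes tested by edgeR's quasi-likelihood test, 18.2% were lower at the same threshold of an adjusted p under 0.05. The median log2 fold change was -0.38 for the 9 genes and 0.00015 for all genes tested. In bulk cord, fewer neurons and less RNA per neuron cannot be told apart.

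Among the genes of axon and synapse, Stmn2 measured 401.5, 406.3, 394 and 399.5 CPM in the untreated WT mice. In untreated G93A mice it measured 296.9, 244.3, 250.4 and 287.4 CPM. Every G93A mouse lay well below every WT mouse, and the log2 fold change was -0.57 (SE 0.081, adjusted p = 1.91e-05 by edgeR's quasi-likelihood test). Kif5a measured 2268, 1895, 2109 and 1989 CPM in WT mice. In G93A mice it measured 1418, 1300, 865.6 and 1634 CPM, with a log2 fold change of -0.66 (SE 0.141, adjusted p = 0.00101). The G93A mice were again all below the WT mice, and they spread more widely (SD 324 against 161 CPM). Dctn1 measured 600.6, 554.5, 597.7 and 589.4 CPM in WT mice. In G93A mice it measured 461.1, 440.8, 381.8 and 516.1 CPM, with a log2 fold change of -0.38 (SE 0.089, adjusted p = 0.00223) and no overlap. Unc13a, the exception in this set, measured 127.7, 98.25, 127.1 and 125.9 CPM in WT mice. In G93A mice it measured 87.87, 78.46, 52.01 and 102 CPM, with a log2 fold change of -0.58 (SE 0.141, adjusted p = 0.00297). The groups overlapped, since the highest G93A mouse was above the lowest WT mouse. The same untreated G93A mouse, replicate 11, was the lowest of its group for Unc13a, Kif5a, Dctn1 and Ubqln2, and replicate 12, the one with liver transcripts, was the highest for the same 4 genes.

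Among the genes of autophagy and protein removal, Ubqln2 measured 164.2, 146.4, 163.1 and 152.8 CPM in untreated WT mice. In G93A mice it measured 122.5, 112.5, 95.13 and 136.4 CPM, below every WT mouse, with a log2 fold change of -0.43 (SE 0.103, adjusted p = 0.00281). Tbk1 measured 66.37, 53.05, 64.11 and 60.76 CPM in WT mice. In G93A mice it measured 54.67, 50.97, 51.68 and 56.47 CPM, with a log2 fold change of -0.19 (SE 0.074, adjusted p = 0.0452). This small difference passed the threshold narrowly, the groups overlapped, and the call was kept in 8 of 19 alternative settings, with adjusted p between 0.00752 and 0.200. Vcp ranged from 401.5 to 420.6 CPM in WT mice and from 413.8 to 461.8 CPM in G93A mice, a log2 difference of 0.06 (95% interval -0.06 to 0.18, adjusted p = 0.400). Optn ranged from 70.24 to 76.84 CPM and from 70.29 to 79.41 CPM, a log2 difference of 0.04 (-0.08 to 0.17, adjusted p = 0.601). These intervals reach from 0.962 to 1.136 times the WT level for Vcp and from 0.943 to 1.127 times for Optn. The RNA-binding gene Tardbp ranged from 199.6 to 271.3 CPM in WT mice and from 224.5 to 251 CPM in G93A mice, a log2 difference of -0.06 (-0.23 to 0.11, adjusted p = 0.586).

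In mice given OKN-007, which shared no animals with the untreated comparison, the same 6 genes passed the threshold and again all were lower in G93A cord (background 18.2% lower of all genes tested). Stmn2 measured 422.4, 400.9, 402 and 391.3 CPM in treated WT mice and 220, 221.7, 229.9 and 279.2 CPM in treated G93A mice, which is 0.588 times the WT level (log2 -0.77, SE 0.081, adjusted p = 4.16e-07). Kif5a measured 2004, 2312, 1871 and 2096 CPM in treated WT mice and 1051, 1101, 1203 and 1422 CPM in treated G93A mice (log2 -0.79, adjusted p = 1.74e-04). Unc13a measured 117.5, 128.3, 106.8 and 130.1 CPM in treated WT mice and 74.07, 75.49, 73.44 and 81.05 CPM in treated G93A mice (log2 -0.67, adjusted p = 8.74e-04). Here the 4 G93A mice lay close together and well under the WT mice. Dctn1 fell from 585 ± 49.8 to 426 ± 38.2 CPM (log2 -0.46, adjusted p = 3.95e-04) and Ubqln2 from 152 ± 20.3 to 113 ± 7.04 CPM (log2 -0.43, adjusted p = 0.00228; SD, n = 4 each). Tbk1 fell from 61.5 ± 3.52 to 54.1 ± 3.24 CPM (log2 -0.19), with an adjusted p of 0.04998, and its call was kept in 9 of 19 alternative settings (adjusted p 0.00926 to 0.231). Tardbp, Optn and Vcp had log2 differences of 0.06, -0.03 and -0.001 in the treated mice, with the widest interval that of Tardbp, from -0.10 to 0.23. Groups without overlap were found for 4 of the 9 genes in untreated mice (32.2% of all genes tested) and for 6 of the 9 in treated mice (44% of all genes tested).

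**Figure D2:**
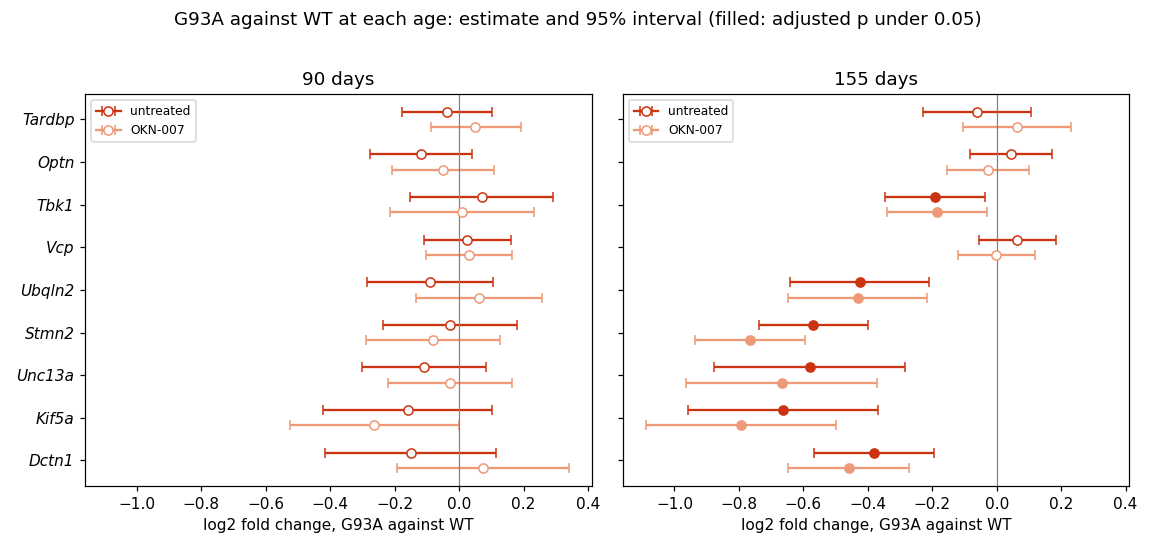
Log2 fold change of G93A against WT mice (x axis) for each gene (y axis) at 90 days (left) and 155 days (right), with the 95% interval as a bar, for untreated and OKN-007 mice. Filled points pass an adjusted p of 0.05: none at 90 days, and Tbk1, Ubqln2, Stmn2, Unc13a, Kif5a and Dctn1 in both treatments at 155 days.

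Over both treatments together, the 6 genes were lower at 155 days with log2 fold changes from -0.19 (Tbk1, adjusted p = 0.00469) to -0.73 (Kif5a, adjusted p = 5.18e-06), against a background of 25.8% lower genes. The caudal Hox score nearly separated these genotypes (2.93 to 4.15 in WT and 0.556 to 3.02 in G93A mice). Cord level and genotype therefore cannot be set well apart at this age, also in a fit that includes the score. With the score as a covariate, 5 genes passed in untreated mice: Stmn2 (log2 -0.56, adjusted p = 8.61e-04), Kif5a (-0.70, 0.00968), Unc13a (-0.61, 0.0210), Dctn1 (-0.36, 0.0317) and Ubqln2 (-0.40, 0.0359). Tbk1 did not pass in that fit (log2 -0.17, adjusted p = 0.200). Without the 3 G93A mice of 155 days with a score under 2, Tbk1 again did not pass in untreated mice (adjusted p = 0.183 by edgeR). The estimates of the other 5 genes ran from -0.38 (Dctn1) to -0.72 (Kif5a), all past the threshold. Untreated replicates 9 and 10 were among the 3, so replicates 11 and 12 alone stood for untreated G93A mice in that fit. Without the 2 mice with liver transcripts, the 6 genes all passed, with Stmn2 at -0.60 and Kif5a at -0.79.

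Markers of cell types moved with the same comparison. All 10 pan-neuronal markers were lower in untreated G93A mice at 155 days, with a median log2 fold change of -0.56, and their summed level ran from 7552 to 10420 CPM against 14200 to 17130 CPM in WT mice. Of the motor neuron markers 11 of 12, all but Isl1, were lower (median -0.76), with a summed level of 237 to 275 CPM against 375 to 440 CPM. All 12 microglial markers were higher (median 2.56; summed level 1908 to 3622 CPM against 387 to 501 CPM), as were 7 of 8 astrocyte markers (median 0.69; summed level 15270 to 18740 CPM against 5921 to 6632 CPM). None of these markers was at 0 in all mice of a group. Of the oligodendrocyte markers 1 of 8 was higher (Mag) and the summed levels overlapped (21020 to 25160 CPM against 21020 to 23140 CPM). Of 4 Schwann cell markers tested 1 was higher (Pmp22), of 6 caudal Hox genes 2 were lower (Hoxc11 and Hoxd11), and of 5 liver genes tested 0 passed. In treated mice 5 of 6 Hox genes were lower (18.2% of all genes) and 1 of 5 liver genes was higher (23.3%). Over both treatments 6 of 6 Hox genes were lower (median -1.775, 25.8% of all genes). There 5 of 5 liver genes were higher (median 3.53, 28.8% of all genes). The part of cell composition in the levels of the 9 genes was not tested.

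Measured against the mean log2 level of the 10 pan-neuronal markers in the same mouse, the 9 genes were spread over a range. Kif5a, Unc13a and Stmn2 differed between untreated G93A and WT mice by -0.04, 0.05 and 0.08 on the log2 scale, and in treated mice by -0.04, 0.10 and -0.015. Ubqln2 and Dctn1 were 0.22 and 0.27 higher relative to the neuronal markers in untreated G93A mice, and 0.33 and 0.30 higher in treated ones. Tbk1, Tardbp, Optn and Vcp were higher relative to them by 0.47, 0.61, 0.70 and 0.72 in untreated mice and by 0.57, 0.82, 0.73 and 0.75 in treated mice. These ratios are descriptions, chosen after the data were seen, and they carry no test.

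The next question was whether OKN-007 changed the genes within a genotype. No gene passed the threshold in either genotype at 155 days, neither among the 9 (0 of 9) nor among all genes tested (0% in G93A and 0% in WT mice by edgeR), and DESeq2 also called 0 of the 9 in each genotype. At an unadjusted p under 0.05 there were 2 of the 9 in G93A mice, against 4.04% of all genes tested, and 0 of the 9 in WT mice (2.94% of all genes). Tardbp was one, with 224.5, 243.8, 231.7 and 251 CPM in untreated and 270.2, 271.9, 274.6 and 260.6 CPM in treated G93A mice (log2 0.18, 95% interval 0.01 to 0.35, adjusted p = 0.9996). These groups did not overlap, which held for 3.16% of all genes in this comparison. Stmn2 was the other, with a log2 difference of -0.18 (-0.35 to -0.01, adjusted p = 0.9996). Its G93A groups overlapped, from 244.3 to 296.9 CPM untreated and from 220 to 279.2 CPM treated. In WT mice the estimates of the 9 genes ran from -0.05 to 0.06, with intervals no wider than -0.29 to 0.30. Leaving out 1 mouse moved the largest estimate in size to 0.13 in WT mice (without untreated replicate 4) and from 0.18 to 0.28 in G93A mice (without untreated replicate 11). The genotype by treatment interaction called 0 of 9 genes (0% of all genes) at 155 days, DESeq2 likewise 0, and 0 of 9 were under an unadjusted p of 0.05 (2.34% of all genes). It had the largest estimates for Stmn2 (-0.20, interval -0.44 to 0.04) and Kif5a (-0.13, -0.55 to 0.29). For Unc13a the interval ran from -0.50 to 0.33. With 4 mice a group, differences between genotypes in the effect of the compound were thus not excluded within these intervals.

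At 90 days, near the onset of disease in this model, none of the 9 genes passed the test between genotypes. The test called 0 of 9 in untreated mice (0% of 18899 genes), 0 of 9 in OKN-007 mice (0%) and 0 of 9 over both treatments (0.0265%), and DESeq2 called 0 of 9 in all 3. At an unadjusted p under 0.05 there were 0 of 9 in untreated mice (5.96% of all genes) and 1 of 9, Kif5a, in treated mice (3.95%) and over both treatments (6.61%). In untreated mice the estimates ran from -0.16 for Kif5a to 0.07 for Tbk1, and without G93A untreated replicate 12 of this age the largest was 0.34 in size. Stmn2 measured 347.5, 398, 332.1 and 307 CPM in untreated WT and 330.2, 309.9, 325.1 and 391.2 CPM in untreated G93A mice, and the groups overlapped throughout (log2 -0.03, interval -0.24 to 0.18). For Unc13a the log2 difference was -0.11 (-0.30 to 0.08), for Ubqln2 -0.09 (-0.29 to 0.10) and for Dctn1 -0.15 (-0.42 to 0.12). Kif5a came nearest to a difference at this age. It measured 1496, 1750, 1648 and 1408 CPM in untreated WT mice and 1406, 1063, 1276 and 1891 CPM in untreated G93A mice. In treated mice it measured 1572, 1718, 1626 and 1679 CPM in WT and 1318, 1479, 1280 and 1419 CPM in G93A cord, without overlap (log2 -0.26, interval -0.52 to -0.001, adjusted p = 0.9996), which held for 1 of the 9 genes and 2.91% of all genes. Of untreated groups, 0 of 9 genes were without overlap (2.35% of all genes). OKN-007 called 0 of 9 genes in G93A (0%), 0 of 9 in WT mice (0%) and 0 of 9 in the interaction (0%) at 90 days, as did DESeq2, and none of the 9 had an unadjusted p under 0.05 there (5.56%, 4.07% and 2.81% of all genes). The largest of these estimates were -0.23 for Dctn1 in WT mice (interval -0.49 to 0.04) and 0.22 for its interaction (-0.15 to 0.60).

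The difference between the ages was tested in a fit of all 32 mice, which shares its mice with the comparisons above. In untreated mice the G93A difference was lower at 155 than at 90 days for Stmn2 (log2 -0.56, interval -0.84 to -0.27, adjusted p = 0.00397) and Unc13a (-0.49, -0.84 to -0.13, adjusted p = 0.0451), which is 2 of 9 genes against 8.34% of all 19829 genes. Kif5a (-0.52, adjusted p = 0.0684) and Ubqln2 (-0.35, adjusted p = 0.0892) did not pass. The count moved between 1 and 5 genes over the alternatives. It was 1 without the 155-day G93A mice of low Hox score and 4 without those with liver transcripts. Without the mice of low Hox score, only replicates 11 and 12 were left of the untreated G93A mice of 155 days. Over both treatments together, 6 of 9 genes were lower (17.8% of all genes): Stmn2 (-0.63, adjusted p = 5.22e-06), Unc13a (-0.58, 4.24e-04), Kif5a (-0.54, 0.00361), Ubqln2 (-0.44, 0.00123), Dctn1 (-0.40, 0.00785) and Tbk1 (-0.25, 0.0419). The Tbk1 call was kept in 28 of 42 alternatives: with the Hox score as a covariate it passed (-0.29, adjusted p = 0.0366), and without the mice of low Hox score it did not (adjusted p = 0.104). With the covariate the counts were again 2 in untreated mice and 6 over both treatments. As the score nearly separated the genotypes at 155 days, these fits cannot set cord level and genotype well apart.

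Levels at the 2 ages, on a scale set over all 32 mice and with both treatments together (n = 8 a group), show where this difference lay. In WT mice 7 of the 9 genes were higher at 155 days (24% of all genes were higher). Dctn1 went from 391 ± 69.1 to 591 ± 33.8 CPM (1.52-fold, adjusted p = 1.63e-06), Ubqln2 from 107 ± 11.9 to 156 ± 14 CPM (1.45-fold, 1.12e-06) and Tbk1 from 44.2 ± 5.78 to 61.9 ± 4.31 CPM (1.40-fold, 1.84e-06). Kif5a, Unc13a, Stmn2 and Optn rose 1.30-fold, 1.23-fold, 1.19-fold and 1.14-fold, and Tardbp and Vcp had log2 differences of 0.11 and 0.06 that did not pass (adjusted p = 0.0964 and 0.258). In G93A mice 2 genes rose and 2 fell, of 9 (48.8% of all genes were called in either direction). Optn rose 1.20-fold (adjusted p = 4.85e-05) and Tbk1 1.18-fold (0.00543). Stmn2 fell from 329 ± 33.4 to 252 ± 31.0 CPM (0.765 times, adjusted p = 2.56e-05) and Unc13a from 93.7 ± 9.12 to 77.5 ± 14 CPM (0.826 times, 0.0102). Ubqln2 measured 106 ± 9.67 and 114 ± 12.5 CPM in G93A mice of 90 and 155 days (adjusted p = 0.256), Kif5a 1390 ± 254 and 1241 ± 246 CPM (0.184) and Dctn1 379 ± 48.2 and 435 ± 46.7 CPM (0.0519). For Stmn2 and Unc13a the level was higher at 155 than at 90 days in WT and lower in G93A mice. For Tbk1 it rose in both, and for Ubqln2, Kif5a and Dctn1 it rose in WT mice and did not pass the test in G93A mice. In WT mice the caudal Hox score also rose with age (median 2.48 at 90 and 3.97 at 155 days), and with the score as a covariate the WT age comparison called 7 of the 9 genes. The summed oligodendrocyte markers of untreated WT mice moved the other way, from 31850 to 39390 CPM at 90 days to 21020 to 23140 CPM at 155 days. Their median astrocyte and microglial sums also fell (7643 to 6239 and 484.5 to 436.4 CPM). Their median pan-neuronal and motor neuron sums rose (13080 to 15150 and 352.8 to 381.7 CPM), with ranges that overlapped between the ages. Unlike the levels above, these sums and the Hox score were scaled within each age. The G93A age comparison called 4 of the 9 genes with the score as a covariate, as without it. The part of cell composition in these age differences was not tested. The study describes mice killed at the 2 ages as separate cohorts, so age and cohort cannot be told apart here.

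**Figure D3:**
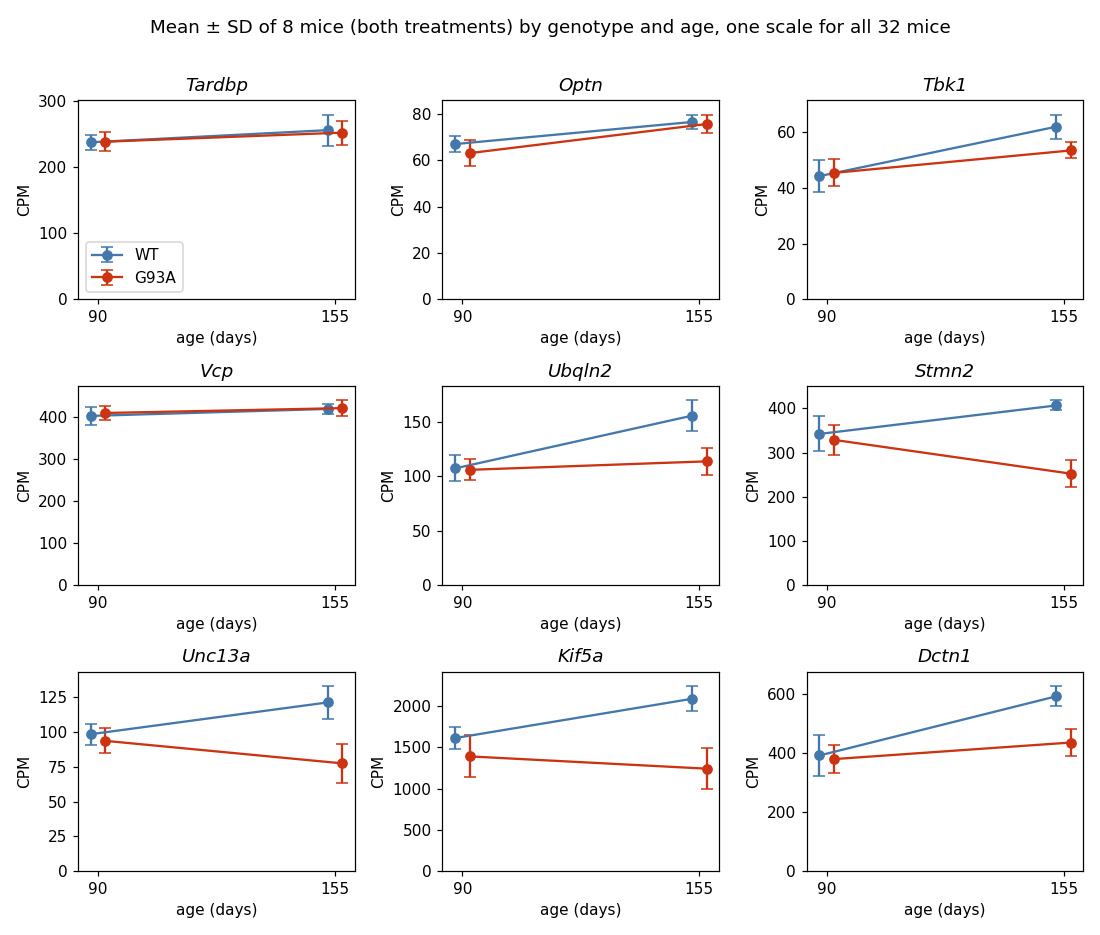
Mean and SD over 8 mice (both treatments) of each gene in CPM (y axis, from 0) at 90 and 155 days (x axis), for WT and G93A mice. The WT line of Dctn1 climbs from 391 to 591 CPM while the G93A line goes from 379 to 435 CPM, and the 2 lines of Vcp stay together.

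The gene families and partners of the 9 genes were read in the untreated comparison at 155 days, where 18.2% of all genes were lower and 21.3% higher. Of 12 genes of the Munc13 family and the release machinery, 9 were lower and 1 higher, with a median log2 fold change of -0.63. Complexin 1 (Cplx1), which clamps and promotes fusion, fell from 1063 to 606 CPM (log2 -0.81, adjusted p = 0.00123). Of the other Munc13 genes, Unc13c was lower (-0.62, adjusted p = 2.09e-04), Unc13b did not pass (-0.07, adjusted p = 0.686) and Unc13d, known from secretory granules of immune cells, was higher (1.03, from 1.001 to 2.076 CPM, adjusted p = 0.00365). Unc13a thus moved with Unc13c and most of the release genes rather than with its whole family.

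Of 6 kinesin-1 genes besides Kif5a, 4 were lower and 1 higher. The neuronal heavy chain Kif5c fell from 937 to 603 CPM (log2 -0.64, adjusted p = 7.23e-04), close to the -0.66 of Kif5a, and the light chain Klc2 fell by 0.60 on the log2 scale (adjusted p = 2.64e-04). The ubiquitous heavy chain Kif5b was lower in untreated mice (-0.54, adjusted p = 0.0191, groups overlapping) but did not pass in treated mice (adjusted p = 0.471). The light chain Klc3 rose from 2.43 to 8.16 CPM (1.75, adjusted p = 8.30e-06). Of the 11 dynactin subunits other than Dctn1, 2 were lower (Actr10 and Dctn3), 1 was higher (Capzb) and 8 did not pass, with a median of -0.10. Actr10, of the pointed end complex, fell by 0.25 on the log2 scale (adjusted p = 0.00468), and dynamitin, Dctn2, measured 149 CPM in both genotypes (log2 -0.002, adjusted p = 0.987). Dctn1 itself stood at -0.38, and the difference between subunits was not tested. Of 10 cytoplasmic dynein subunits 5 were lower and 0 higher, led by Dync1i1, the intermediate chain typical of neurons (-0.77, adjusted p = 5.39e-05), and the light chain Dynll2 (-0.49, adjusted p = 2.02e-04).

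Of the other stathmins, Stmn3 fell from 622 to 434 CPM (log2 -0.52, adjusted p = 7.61e-04) and Stmn1 and Stmn4 did not pass (-0.08 and 0.05, adjusted p = 0.526 and 0.766). Of the other ubiquilins, Ubqln4 and Ubqln1 were both lower, Ubqln4 by 0.30 (adjusted p = 0.00764) and Ubqln1 by 0.19 (adjusted p = 0.0375) on the log2 scale. Of 16 partners of Tbk1 and optineurin and autophagy receptors, 5 were higher, 3 lower and 8 did not pass. The related kinase Ikbke, best known from immune cells, rose from 2.07 to 5.91 CPM (log2 1.497, adjusted p = 7.10e-06), and Tank, a scaffold shared by both kinases, rose by 0.30 (adjusted p = 0.00612). The adaptor Tbkbp1 fell by 0.36 (adjusted p = 8.91e-04) and the deubiquitinase Cyld by 0.31 (adjusted p = 0.00339). Of 19 Vcp cofactors 6 were higher, 3 lower and 10 did not pass, with a median of -0.01. Derl2, which works with Vcp in the disposal of proteins from the endoplasmic reticulum, rose by 0.31 (adjusted p = 0.0131), and the ubiquitin ligase Ube4b fell by 0.16 (adjusted p = 0.0462).

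Of 32 other genes linked to ALS, 6 were higher, 10 lower and 16 did not pass, with a median of -0.11. The neurofilament gene Nefh fell from 2746 to 1168 CPM (log2 -1.23, adjusted p = 1.35e-06) and the tubulin Tuba4a from 459 to 279 CPM (-0.72, adjusted p = 1.48e-05). Angiogenin (Ang) rose from 1.25 to 6.84 CPM (2.45, adjusted p = 9.27e-09) and profilin 1 (Pfn1) from 78.0 to 124 CPM (0.67, adjusted p = 1.15e-04). The median of the 9 genes, at -0.38, lay below that of these 32, while their directions were mixed. The lists were chosen with results of these data known and were not compared by a test.

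**Figure D4:**
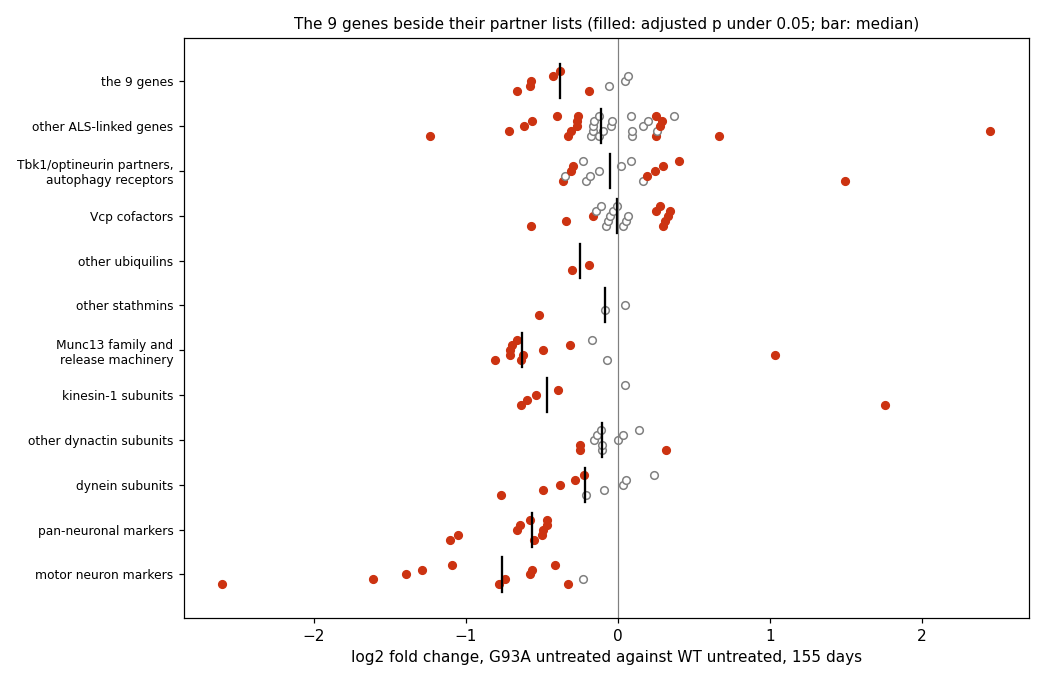
Log2 fold change of untreated G93A against WT mice at 155 days (x axis) for each gene (points) of each list (y axis), filled where the adjusted p is under 0.05, with the list's median as a black bar. The pan-neuronal markers (median -0.56) and all release genes other than Unc13d (list median -0.63) lie to the left of 0, while the Vcp cofactors (-0.01) and the other dynactin subunits (-0.10) lie around it.

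Across the 32 mice, the genes whose log2(CPM + 1) followed each of the 9 most closely also differed by gene, given as a description over mice that share groups. Stmn2 was nearest to the neurofilament gene Nefl (Pearson r = 0.98), then Nkiras1 and Ccdc92. Kif5a was nearest to Epb41l3 (0.97), Ano4 and Magi1, Dctn1 to Myh10 (0.98) and Sept3, Ubqln2 to Plcb4 (0.98), Lonrf2 and Cyfip2, and Unc13a to Ppip5k1 (0.95), Dzip1 and Hectd4. Tbk1 was nearest to Pls3 (0.97), Rab3gap1 and Adss, and Optn to Ddx42 (0.94), Fam53c and Brd8. Tardbp followed genes of RNA processing, Prpf4b (0.83) and Hnrnpa3 (0.82) and also Gm47155. Vcp had the weakest neighbours, the chaperonin subunit Cct3 (0.77), Pgk1 and Arl6ip1.

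The positions of the genes bear on how their reads could be counted. In the GENCODE annotation of GRCm38, exons of Unc13a (chr8:71624417-71671757, minus strand) overlap those of Colgalt1 on the other strand over 495 bases, of 12623 exonic bases of Unc13a. Colgalt1 measured 32.4 to 38.5 CPM in untreated WT and 47.2 to 67.2 CPM in untreated G93A mice at 155 days, higher with a log2 fold change of 0.66 (adjusted p = 2.84e-05), opposite to Unc13a. Exons of Tardbp (chr4:148612382-148627019, minus strand) overlap Masp2 over 1817 bases, but Masp2 did not exceed 0.901 CPM in any mouse. Vcp (chr4:42979963-43000507) and Optn (chr2:5020642-5064051) overlap weakly expressed antisense transcripts over 352 and 73 bases. The libraries were stranded, and the strand setting of the counting is not given in the sources used here. Tbk1 (chr10:121546455-121586787), Kif5a (chr10:127225696-127263348), Ubqln2 (chrX:153498227-153501570, 1 exon), Stmn2 (chr3:8509360-8561606) and Dctn1 (chr6:83165920-83200117) share no exonic base with another gene of that annotation. The 1306 genes of the table outside that annotation were not checked.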

How the data were processed

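RNA from 25 mg of spinal cord per mouse was made into stranded mRNA libraries and sequenced. The authors deposited raw read counts per gene without normalization. The study's methods name Trimmomatic, STAR, HTSeq and edgeR with an older GENCODE release on GRCm38, whereas the processing notes with the samples name FastQC, STAR, featureCounts and edgeR with GRCm39; which counter made the table was not settled here. Gene IDs were paired with symbols through a GENCODE annotation of GRCm38, which named 41218 of 42524 genes (96.9%); the other 1306 IDs are numbered above its highest gene, so the table was counted on a later annotation than the one the methods name, and coordinates printed are those of GRCm38.

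The tests were run in R 4.3.3 with edgeR 4.0.16, which loads limma 3.58.1 (filterByExpr, TMM, estimateDisp, glmQLFit, glmQLFTest; two-sided, no covariates), with Benjamini-Hochberg adjustment over all genes tested and a threshold of 0.05. The 16 mice of an age were fitted as 4 groups, and differences between ages in a fit of all 32 mice. SEs came from the F statistic, and intervals are 95% intervals. CPM used the TMM factors of the mouse's own age, except where both ages are set on one scale. The procedure was tested on counts simulated with the spread estimated from these data, which checks the code and not the results given here. Each sample was taken as 1 mouse, no batch is labelled, and p-values measure the spread between these samples. Numbers are shared between ages only, by different mice. All 9 genes are reported in every comparison; from other lists, at most the 2 largest calls in each direction without overlap are named, plus family members, and for each gene the 3 with the highest correlation. Dctn2, Dctn3, Capzb, Isl1, Mag, Pmp22, Hoxc11, Hoxd11, Colgalt1 and the levels relative to neuronal markers were singled out after their values were seen. A few genes that this rule names are not reported here. The members and lists were chosen with earlier results of these data known. Alternatives were DESeq2 1.42.0, RLE and upper quartile factors, no filter, at least 10 counts in every mouse, robust dispersions, a fit of the compared mice alone, a joint fit of both ages, the caudal Hox score as covariate, a block for the sample number and leaving out each mouse. After seeing the data, fits without mice of low Hox score or with liver transcripts were added.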

Additional observations from a re-analysis of the deposited data

Results flagged for a closer look

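In 3 of 72 sets of 4 mice, 1 mouse stood apart from the other 3 by Dixon's criterion (3.6 are expected by chance). Ubqln2 was low in G93A OKN-007 replicate 13 at 155 days, at 102 CPM with the next mouse at 115 CPM. Stmn2 was high in G93A OKN-007 replicate 16 at 155 days, at 279.2 CPM with the next mouse at 230 CPM. Unc13a was low in WT untreated replicate 2 at 155 days, at 98.25 CPM with the next mouse at 126 CPM.

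The difference between G93A and WT mice itself differed between 155 and 90 days in 8 tests of an interaction. In untreated mice these were Stmn2 (log2 -0.5553) and Unc13a (-0.4869). Over both treatments they were Stmn2 (-0.6348), Unc13a (-0.5779), Kif5a (-0.5401), Ubqln2 (-0.4351), Dctn1 (-0.4036) and Tbk1 (-0.2511). The caudal Hox score and the markers of neurons and glia also differed between genotypes at 155 days, with the values given above. The score nearly separated the genotypes at that age, so a fit with it as a covariate cannot set them well apart. With the Hox score as a covariate, 2 genes passed in untreated mice and 6 over both treatments, with Stmn2 at -0.68, Kif5a at -0.64 and Tbk1 at -0.29 (adjusted p = 0.0366 by edgeR) over both. The part of the neuronal and glial markers was not tested.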

How the results depend on the processing

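The counts of the 9 genes past the threshold stayed at 5 to 6 in the 3 genotype comparisons at 155 days (19, 19 and 26 alternatives), at 0 in every comparison within 90 days and of OKN-007, and at 5 to 6 in the age interaction over both treatments. Kif5a, Unc13a, Stmn2, Ubqln2 and Dctn1 passed in all of the alternatives of these genotype comparisons, and Tbk1 in 8 of 19, 9 of 19 and 25 of 26. The age interaction in untreated mice, with 2 genes, was the least stable: 5 genes with upper quartile factors, 1 without a filter, 4 with at least 10 counts in every mouse, 4 with the sample number as a replicate block, 1 without the 155-day mice of low Hox score and 4 without those with most liver RNA; the cause was not tested. Leaving out 1 mouse gave 1 to 5 genes. It was 1 without WT untreated replicates 1 or 3 or G93A untreated replicates 9 or 12 of 90 days, or without WT untreated replicates 1, 3 or 4 or G93A untreated replicates 10 or 11 of 155 days; it was 5 without WT untreated replicate 2 of 90 days and 4 without G93A untreated replicate 12 of 155 days. Same-numbered mice correlated by -0.222 to 0.260, over 0.1 in 3 of 16 pairs, so the numbers do not pair the mice, and the block left the other counts within 1.5 times.

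Changes of sign befell genes that did not pass. Over both treatments at 155 days, Tardbp was -0.01691 with RLE factors, -0.03377 with upper quartile factors, -0.0009512 without a filter, -0.005509 with at least 10 counts, -0.01696 by DESeq2, -0.02312 with all 32 mice and -0.02722 without the liver RNA mice, and Optn was -0.01029, -0.02724, -0.01046 (DESeq2), -0.01628 and -0.01413 under the same changes other than the filters. Vcp was -0.005 with upper quartile factors, 0.04797 in treated mice with the Hox covariate, and 0.006176 in the age interaction over both treatments without mice of low Hox score. Leaving out 1 mouse ranged Tardbp from -0.1366 to 0.003836 (untreated) and from -0.04137 to 0.02904 (both treatments), Optn from -0.004281 to 0.03107, Vcp from -0.02056 to 0.0105 (treated) and from -0.03666 to 0.0214 (age interaction). How far depth limits detection was not tested.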
